A study of Danio rerio with 6 samples.

Results

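Vitamin D-binding protein, transthyretin, vitronectin, angiotensinogen, kininogen and plasminogen are made by hepatocytes and secreted into the blood. The genes described here encode plasma proteins, several of which carry a ligand or are cut into active fragments. They were chosen by name, as the rows for *gc*, *ttr*, *ambp*, *vtna*, *vtnb*, *agt*, *plg*, *kng1* and *itih2*, and are 9 of the 25281 genes listed in each library. All 9 were found and all 9 had enough reads to be tested, among 15705 tested genes. With GW7647, an agonist of the nuclear receptor PPARα, transcripts of *gc*, *plg*, *ttr* and *kng1* were at least 1.5-fold higher than with DMSO. Those of *vtnb* and *itih2* rose by less, and *vtna* did not separate the groups. *ambp* and *agt* lay higher without passing the main test, which is unpaired, and passed with the replicate number as a block.

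RNA came from dissected zebrafish livers of the line *Tg*(*fabp10a:pt-Beta-catenin*), which all 6 libraries share. In this line the *fabp10a* promoter, active in hepatocytes, drives a stable β-catenin, hepatocytes are lost, and liver progenitor cells (LPCs) and the cells of the bile ducts (BECs) make up much of the organ. The larvae received DMSO, the vehicle, or 1 μM GW7647 for 2 days, from 13 to 15 days post-fertilization (dpf), and livers were pooled, with 3 libraries per group. The study describes the libraries as independent samples and its embryos as coming from several clutches, while the labels do not say how clutches were divided among libraries, so p-values measure the spread between these libraries.

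In blood, carriers keep poorly soluble hormones and vitamins in circulation. Precursors such as angiotensinogen and plasminogen are inactive until a protease cuts them, and kininogen releases kinin peptides when it is cut. Most of these proteins enter the endoplasmic reticulum as they are made and leave the hepatocyte through the Golgi, so their output depends on transcription and on the secretory machinery alike.

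Reads counted on exons numbered 19961881 to 25224356 per library, and the 9 genes had 1551 to 70959 of them in any one library. Expression is given as CPM, counts relative to the library total after TMM scaling, which corrects the totals for a few abundant genes. Its factors were 1.05 to 1.1 in DMSO and 0.903 to 0.940 in GW7647. The CPM values and edgeR fold changes below depend on them unless a fit without them is named. Differentially expressed genes (DEGs) differed by 1.5-fold or more with an adjusted p no higher than 0.05. Each adjusted p below, unless another test is named, is a Benjamini-Hochberg value over all tested genes from the quasi-likelihood test of edgeR. With 3 libraries against 3, an exact permutation test cannot give a p below 0.1. The PPARα target genes *cpt1ab* (log2 fold change 2.39), *angptl4* (3.50) and *pdk4* (1.46), read as a check of the drug, were DEGs.

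Among the 9 genes, 4 were DEGs and all 4 were higher with GW7647, beside 3.39% of all tested genes (533 of 15705) that were DEGs in that direction and 2.62% that were DEGs in the other. A further call rule, an adjusted p of at most 0.05 with any fold change, was met by 6 of the 9 beside 5.5% of all genes, and DESeq2 called 7 beside 7.45%. With the replicate number as a block, 8 were called higher beside 9.95%. In CPM, the lowest GW7647 library exceeded the highest DMSO library in 8 of the 9 genes, which held for 15.7% of all genes. For *ambp* and *agt* this rested on the TMM factors, since their deposited RPKM overlapped between the groups. The median log2 fold change of the 9 genes was 0.52, against -0.01 for all tested genes. These counts describe the 9 genes and do not test them as a group.

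**Figure D1:**
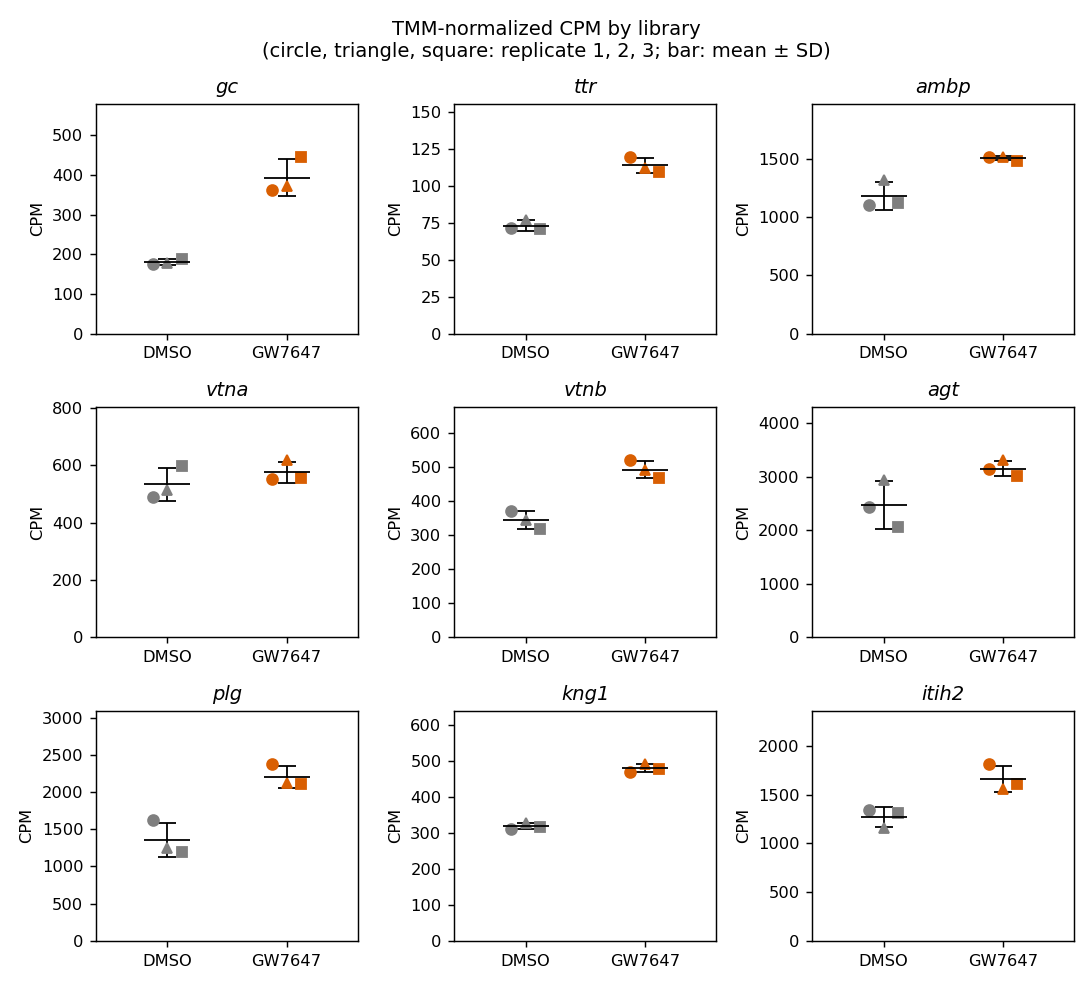
TMM-normalized CPM (vertical axes, each from 0) of the 9 genes in each of the 6 libraries, grouped by treatment, with symbols for replicates 1, 2 and 3 and bars for mean ± SD (n = 3). For *gc* the GW7647 libraries sit between 362 and 446 CPM and the DMSO libraries between 177 and 189, while for *vtna* the groups overlap.

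Vitamin D-binding protein, which carries vitamin D and its metabolites in blood, is encoded by *gc* (ENSDARG00000089310, chromosome 5, bases 45677781-45725008 on the plus strand, as deposited, with the genome build not given in the sources used here). Of the 9 genes it had the largest fold change. The study used *gc* as a hepatocyte marker and reported it higher with GW7647 by quantitative PCR and in situ hybridization. *gc* is also the one of the 9 for which the study lists quantitative PCR primers, shown here because *gc* had the largest fold change of the 9.
gc forward: caagcatgggtttcttggg
gc reverse: aacctcctctgtcagtttctg
These primers have 19 and 21 bases, are printed 5′ to 3′ as the study lists them, and were not matched to a genome here. In DMSO replicates 1, 2 and 3 *gc* stood at 177, 177 and 189 CPM, and in GW7647 replicates 1, 2 and 3 at 362, 372 and 446 CPM. Every treated library exceeded every control library by far more than the spread within either group. The change was 2.17-fold, a log2 fold change of 1.12 with a standard error (SE) of 0.11 (adjusted p = 5.7e-04). It stayed a DEG under every alternative count of exon, gene or junction reads, scaling, filter, threshold and left-out library that was run.

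Transthyretin, which carries thyroid hormone and, in mammals, is bound by the retinol carrier Rbp4, is encoded by *ttr* (ENSDARG00000037191, chromosome 20, bases 6142433-6157942). Its CPM was 71.4, 77.1 and 70.6 in the DMSO libraries and 120, 112 and 109 in the GW7647 libraries. The lowest treated library lay above the highest control library. The fold change was 1.56 (log2 0.64, SE 0.09, adjusted p = 0.0038).

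Of the companion genes of these carriers, 17 were tested as a vitamin D and thyroid hormone list. At an adjusted p of at most 0.05, 4 rose and 0 fell (6 and 0 with the replicate number as a block). Of all genes 5.5% rose, and 9.95% with that block. *rbp4* had 1659 ± 416 CPM in the control libraries and 5088 ± 1165 in the treated ones (SD, n = 3), a rise of 1.62 on the log2 scale (SE 0.20, adjusted p = 0.0025). The thyroid hormone transporter gene *slc16a10* rose by 0.68 (adjusted p = 0.0060), and *cyp27a7*, of a family of mitochondrial sterol hydroxylases, by 0.94 (adjusted p = 0.0114). *cyp24a1*, which encodes the enzyme that inactivates vitamin D, rose by 0.53 (adjusted p = 0.0477) and lost its call when any library other than DMSO replicate 1 was left out (adjusted p from 0.0917 to 0.146). The endocytic receptor genes *cubn* and *lrp2a*, which take up vitamin D-binding protein in kidney, were at most 1.66 and 2.58 CPM in any library.

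The log2 ratio of *ttr* to *rbp4* within a library fell by 0.98 with GW7647. The ratio was 0.0334, 0.0560 and 0.0482 in the DMSO libraries and 0.0186, 0.0250 and 0.0252 in the GW7647 libraries. These do not overlap, and the two-sided exact permutation p was 0.1, the smallest the design allows (adjusted over the 4 ratios with values, 0.2).

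The gene *ambp* (ENSDARG00000004296, chromosome 10, bases 10801564-10824286) encodes a single precursor that is cut into α1-microglobulin, a carrier of small molecules, and bikunin, a protease inhibitor. Its CPM was 1104, 1323 and 1123 with DMSO and 1517, 1519 and 1485 with GW7647. In CPM the treated libraries were nearly equal and all above the controls, among which DMSO replicate 2 was highest. In the deposited RPKM, which holds no TMM factor, the groups overlapped, at 487 to 566 in DMSO and 557 to 590 in GW7647. The log2 change was 0.35 (SE 0.10), which did not pass the test (adjusted p = 0.060). With the replicate number as a block the adjusted p was 0.0209, and without DMSO replicate 2 it was 0.0283, at a log2 change of 0.44. Over all fits with 1 library left out, the log2 change of *ambp* was 0.30 to 0.44 and the adjusted p reached 0.161.

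Bikunin is joined to heavy chains to form the inter-α-trypsin inhibitor, which binds hyaluronan, and *itih2* (ENSDARG00000045516, chromosome 4, bases 25187912-25215968, minus strand) encodes a heavy chain. The DMSO libraries held 1346, 1155 and 1316 CPM of it and the GW7647 libraries 1815, 1563 and 1613 CPM. The groups did not overlap. The change of 0.39 on the log2 scale (SE 0.10) passed narrowly, with an adjusted p of 0.0496, and was lost when any one library was left out, with adjusted p from 0.0702 to 0.147. *itih2* overlaps the gene model of *kin* on the other strand.

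Of 8 tested genes of the bikunin and inter-α-trypsin inhibitor list, 2 rose and 0 fell, and with the replicate block 4 rose and 1 fell. Of all genes 5.5% rose and 3.56% fell, and in the block fit 9.95% rose and 7.72% fell. The heavy chain gene *itih3b* rose by 0.68 (SE 0.10, adjusted p = 0.0048). *zgc:112265*, a related heavy chain gene by the symbol *itih3b.2* in the gene name table, rose from 3884 to 5632 CPM in the mean (log2 change 0.54, SE 0.08, adjusted p = 0.0062) and had a higher CPM than any of the 9 genes in every library. How reads shared by such related genes were counted is not given in the sources used here. The log2 change of *itih3a* was 0.43 (adjusted p = 0.108, with the block 0.0066). That of *tnfaip6*, whose product moves heavy chains onto hyaluronan, was -0.87 (adjusted p = 0.0992, with the block 0.0060). The ratio of *ambp* to *itih2* was 0.820, 1.15 and 0.853 in DMSO and 0.836, 0.971 and 0.921 in GW7647, a log2 difference of -0.03 (exact permutation p = 0.9, two-sided).

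Vitronectin, an adhesive protein of plasma and matrix that binds αv integrins, has a pair of genes in zebrafish. For *vtnb* (ENSDARG00000053831, chromosome 21, bases 39067512-39081107, minus strand), CPM was 370, 342 and 316 with DMSO and 519, 490 and 466 with GW7647. The groups stood apart, with a log2 change of 0.52 (SE 0.10, adjusted p = 0.0142) that amounts to 1.43-fold. Its adjusted p was 0.050 without GW7647 replicate 1 and 0.0532 without GW7647 replicate 2, above the threshold in both.

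For *vtna* (ENSDARG00000055388, chromosome 15, bases 28202170-28208926) the values were 490, 514 and 598 CPM in DMSO and 552, 617 and 557 CPM in GW7647. The lowest treated library lay below the highest control library, and the change of 0.11 (SE 0.11) did not pass (adjusted p = 0.577). Its sign depended on scaling, since it was -0.11 with library totals and no scaling factor. Of its exon reads 90.2% to 91.4% mapped to 1 place only, against 100% for *vtnb*, and the counting setting for reads with several places is not given in the sources used here. The *vtna* model overlaps *scarf1* on the other strand, and the strand setting of the counting is not given either.

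Within a library the ratio of *vtna* to *vtnb* was 1.32, 1.5 and 1.89 with DMSO and 1.06, 1.26 and 1.19 with GW7647. The treated ratios all lay below the control ratios, by 0.41 on the log2 scale, at the smallest p the design allows (exact permutation p = 0.1, adjusted 0.2). A ratio within a library does not depend on the scaling.

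Among 6 tested genes of vitronectin receptors and partners, 0 rose and 3 fell, and with the block 5 fell. *itgav*, the αv integrin chain, fell by 0.53 (SE 0.10, adjusted p = 0.0147), and *itgb3b*, a β3 chain, fell by 0.77 (SE 0.15, adjusted p = 0.0157). Without GW7647 replicate 1 the adjusted p was 0.0509 for *itgav* and 0.0506 for *itgb3b*, and without GW7647 replicate 3 that of *itgav* was 0.0506. In this direction 3.56% of all genes passed an adjusted p of at most 0.05, and 7.72% with the block.

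Angiotensinogen, the source of angiotensin peptides, is encoded by *agt* (ENSDARG00000016412, chromosome 13, bases 23988442-23995876). It had 2429, 2932 and 2051 CPM in the DMSO libraries and 3136, 3303 and 3011 CPM in the GW7647 libraries. In CPM the treated libraries were higher without overlap, but the controls spread widely, DMSO replicate 2 coming closest to them. In the deposited RPKM, which holds no TMM factor, the groups overlapped, at 1215 to 1663 in DMSO and 1523 to 1698 in GW7647. The log2 change was 0.35 (SE 0.13), and it did not pass (adjusted p = 0.133). With the replicate block the adjusted p was 0.0274, and without DMSO replicate 2 it was 0.043 at a log2 change of 0.49. Over all fits with 1 library left out, the log2 change of *agt* was 0.24 to 0.49 and the adjusted p reached 0.300.

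Of 9 tested genes of the renin-angiotensin list, which holds enzymes and receptors, 0 rose and 0 fell, with 1 falling in the block fit, where 7.72% of all genes fell. Renin, which starts the cascade, is encoded by *ren*, which had 3 reads or fewer in every library, so no change of it could be read at this depth. *ace* stood at 1.24 and 1.23 CPM in the means of DMSO and GW7647.

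Kininogen, which releases kinin peptides and also inhibits cysteine proteases, is encoded by *kng1* (ENSDARG00000022372, chromosome 22, bases 36839080-36876133, minus strand). Its CPM was 312, 327 and 317 with DMSO and 470, 491 and 477 with GW7647. Libraries of a group were close together, with coefficients of variation of 2.42% and 2.27%, and the groups did not overlap. The fold change of 1.51 (log2 0.59, SE 0.08, adjusted p = 0.0045) lay just above the 1.5-fold limit (log2 0.58), and *ttr* at 1.56-fold and *vtnb* at 1.43-fold are its neighbours on either side. Without DMSO replicate 1 or without GW7647 replicate 2 it was just below that limit. *kng1* overlaps *mccc1* on the other strand, a gene with 15767 exon reads over the 6 libraries.

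In the kallikrein-kinin list, 7 genes were tested, 2 rose and 0 fell, beside 5.5% and 3.56% of all genes. The carboxypeptidase N gene listed as *cpn1_2*, whose enzyme trims kinins, rose by 0.97 (SE 0.09, adjusted p = 4.4e-04). Another entry of that name, *cpn1_1*, was far less abundant, at 6.77 CPM in DMSO and 4.95 CPM in GW7647 in the mean. Its log2 change was -0.45 (adjusted p = 0.442). *serping1*, the inhibitor of plasma kallikrein, rose by 0.49 (adjusted p = 0.0211) and lost its call without DMSO replicate 3 or any one GW7647 library (0.056 to 0.0677). The kallikrein and factor XII genes *klkb1* and *f12* were not found under those names, so the ratio of *kng1* to its kallikrein could not be formed.

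Plasminogen, which becomes the fibrin-cleaving protease plasmin, is encoded by *plg* (ENSDARG00000023111, chromosome 20, bases 42688488-42702884, minus strand). The DMSO libraries had 1618, 1253 and 1190 CPM and the GW7647 libraries 2378, 2127 and 2102 CPM. DMSO replicate 1 was the highest control and still below every treated library. The change was 1.63-fold (log2 0.70, SE 0.13, adjusted p = 0.0135).

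Around plasminogen the 15 tested genes went both ways, with 4 that rose and 3 that fell, and 7 that fell in the block fit. Of all genes 5.5% rose and 3.56% fell, and 7.72% fell in the block fit. The 4 that rose around plasminogen encode proteins of the plasma. *serpinf2a*, encoding the plasmin inhibitor α2-antiplasmin, rose by 0.86 (SE 0.15, adjusted p = 0.0112) and *a2ml*, an α2-macroglobulin relative, by 0.60 (SE 0.11, adjusted p = 0.0136), though *a2ml* dropped below 1.5-fold when DMSO replicate 1, DMSO replicate 2, GW7647 replicate 1 or GW7647 replicate 3 was left out. *cpb2*, whose enzyme slows fibrin breakdown, and *habp2*, a plasma protease, rose by 0.86 and 0.63 and lost their calls without DMSO replicate 2 (adjusted p of 0.0515 and 0.0516), *habp2* also without DMSO replicate 3 or GW7647 replicate 1 or 3 (0.0552 to 0.0633).

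*plat* and *anxa2a* were among those that fell. *plat*, tissue plasminogen activator, fell by 1.71 (SE 0.31, adjusted p = 0.0126), from 8.84, 5.99 and 4.76 CPM to 1.25, 2.66 and 2.04. *anxa2a*, whose product binds plasminogen and its activator on cells, fell by 1.86 (SE 0.35, adjusted p = 0.0143), its DMSO libraries ranging from 25.9 to 66.3 CPM. *plaua*, a urokinase gene, had a log2 change of -0.88 (adjusted p = 0.0959, with the block 0.0436). The ratio of *plg* to *serpinf2a* was 8.98, 5.36 and 6.01 in DMSO and 7.80, 5.78 and 4.79 in GW7647, a log2 difference of -0.14 (exact permutation p = 0.6). The related gene *serpinf2b* was more abundant than *serpinf2a*, at 1052 CPM in DMSO and 1290 CPM in GW7647 in the mean. Its log2 change of 0.29 did not pass (adjusted p = 0.111, with the block 0.0698). The ratio of *plg* to *serpinf2b* was not tested, so the ratio above covers *serpinf2a* only.

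**Figure D2:**
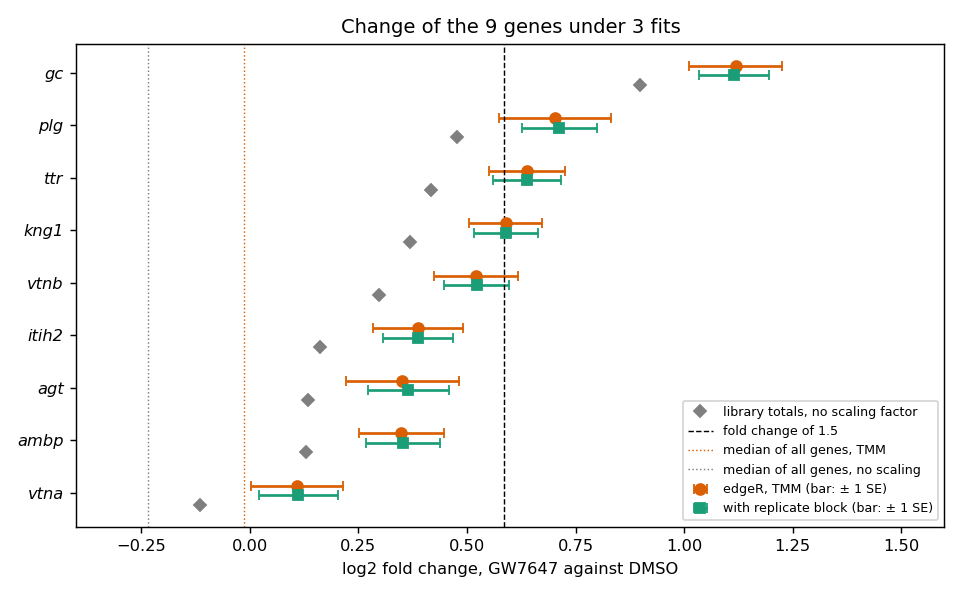
Log2 fold change (GW7647 against DMSO, horizontal axis) of each of the 9 genes in the edgeR fit with TMM, with the replicate block, and with library totals and no scaling factor. Bars are ± 1 SE, the dashed line marks 1.5-fold, and the dotted lines the medians of all genes, which lie at -0.01 with TMM and -0.23 without scaling.

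Leaving out the TMM factors moved the median of all genes from -0.01 to -0.23. Relative to that median the median of the 9 genes was 0.53 either way, with *gc* alone remaining a DEG without the factors (log2 change 0.90, adjusted p = 0.0028). Their share of DEGs thus rests on the scaling for *ttr*, *plg* and *kng1*, which had log2 changes of 0.42, 0.48 and 0.37 without it and stayed past an adjusted p of 0.05 (0.0157, 0.0314 and 0.0233). The calls of *vtnb* and *itih2* were lost without the factors (log2 changes 0.30 and 0.16, adjusted p = 0.0574 and 0.271).

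Levels between genes are compared per exon length, as the deposited RPKM. *agt* was highest at 1432 ± 224 RPKM in DMSO and 1582 ± 100 in GW7647 (SD, n = 3), and *ttr* lowest at 84.3 ± 2.27 and 113 ± 3.13. Between them, in DMSO, *ambp* (519), *plg* (407), *itih2* (380), *vtna* (281), *vtnb* (187), *kng1* (179) and *gc* (97.6) followed as mean RPKM. The library ranges of *ambp* and *plg*, of *plg* and *itih2*, and of *vtnb* and *kng1* overlapped, so these neighbours could not be ordered. In GW7647 *plg* stood at 571, level with *ambp* at 572, the ranges of *kng1* (233) and *vtnb* (232) overlapped, and so did those of *kng1* and *vtna* (261). *gc*, at 183, kept its place below them.

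**Figure D3:**
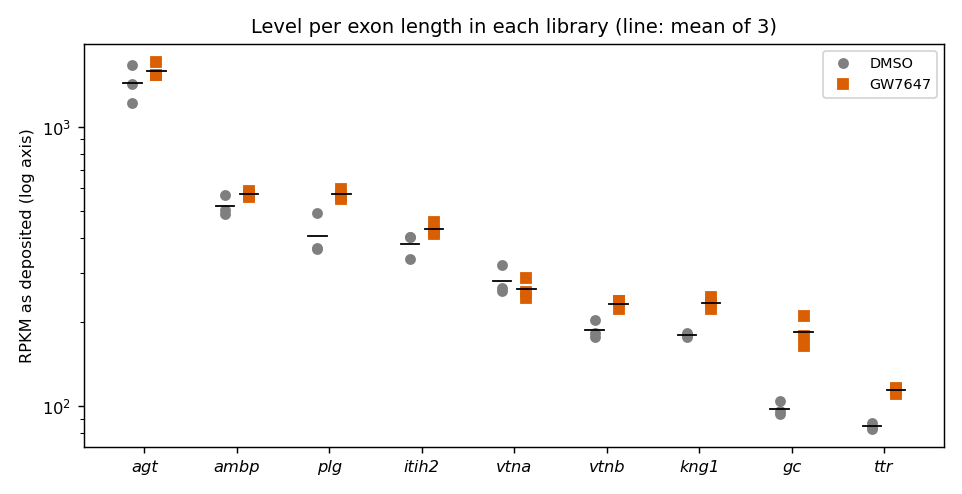
Deposited RPKM (vertical log axis) of the 9 genes in each library, ordered by their DMSO mean, with lines for the mean of 3. *agt* lies near 1432 and 1582 RPKM in DMSO and GW7647, and *ttr* near 84.3 and 113.

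Summed over the 9 genes, the deposited TPM, a share of all transcripts after correction for length, was 7106, 6800 and 6528 in DMSO and 8070, 8263 and 7995 in GW7647. The groups did not overlap. *agt* made up 36.3% to 44.5% of the sum in any library.

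Reads on introns, which come largely from RNA not yet spliced, are a further readout of the same genes from other reads. All 9 genes could be tested on intron reads, among 7803 genes, and 0 passed an adjusted p of 0.05, beside 0.41% of all genes in either direction and 0.397% upward. At an unadjusted p under 0.05 there were 2 of the 9, *plg* (log2 change 0.76, SE 0.28) and *ttr* (0.56, SE 0.25), beside 8.52% of all genes. All 9 fitted changes were above 0, with a median of 0.26 against 0.02 for all genes. *gc* differed most from its exon value, with an intron change of 0.11 (SE 0.34, 39 to 107 intron reads per library) beside 1.12 on exons. The share of its gene reads in introns was 1.94% ± 0.17 in DMSO and 0.987% ± 0.545 in GW7647 (SD, n = 3), an exact permutation p of 0.1, or 0.9 after adjustment over the 9 genes. Reads across exon-exon junctions gave *gc* a change of 1.12.

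**Figure D4:**
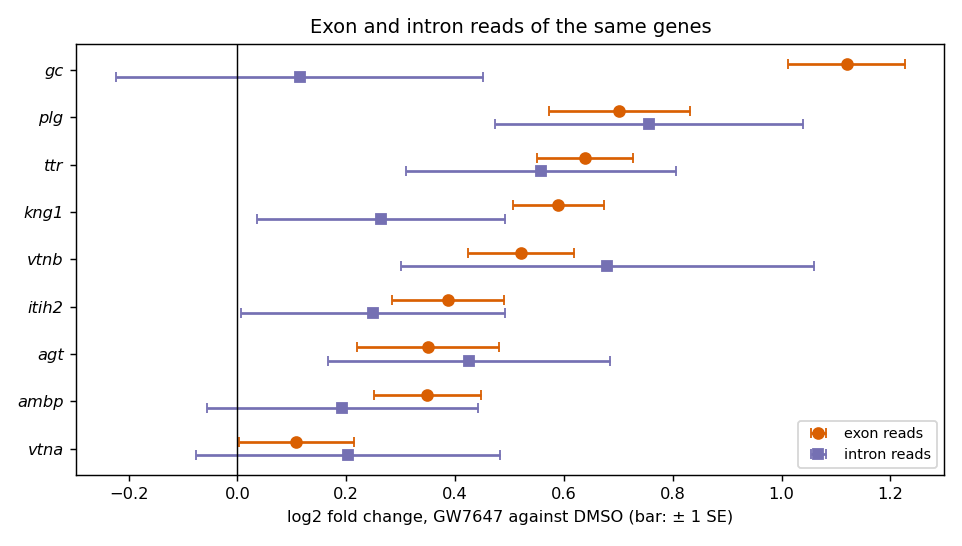
Log2 fold change (GW7647 against DMSO, horizontal axis) of exon reads and of intron reads of each of the 9 genes, with bars of ± 1 SE. The intron changes have SEs of 0.23 to 0.38 and those of exons 0.08 to 0.13.

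Other plasma proteins, the secretory pathway and the transcription factors known to act on plasma protein genes were read from the same fit. Of all genes, 5.5% rose and 3.56% fell in that fit, and 9.95% and 7.72% with the block. Of 16 other plasma protein genes, 8 rose, all of them DEGs, and 0 fell, while the block fit called 9 higher and 1 lower. The latter was *saa*, an acute-phase gene, at 43.2, 2.18 and 1.35 CPM in DMSO and 0.272, 0.581 and 0.255 CPM in GW7647 (adjusted p = 0.0548, with the block 0.0033). *shbg*, the sex hormone carrier, rose by 1.2 (SE 0.09, adjusted p = 1.8e-04) and *selenop*, the selenium carrier, by 0.77 (SE 0.13, adjusted p = 0.0090). *uox*, urate oxidase, rose by 0.82 and is in the list although it is a peroxisomal enzyme and not a plasma protein. *fetub*, the most abundant of them over all 6 libraries but not in the DMSO mean, went from 4023 to 6197 CPM in the mean, with a log2 change of 0.62 (adjusted p = 0.0656, with the block 0.0045, and 0.0199 without DMSO replicate 1). With another library left out its adjusted p reached 0.175.

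Of 27 secretory pathway genes, 6 rose and 0 fell, none of them a DEG, and the median log2 change was 0.32 (0.10 without scaling factors). Of all genes 5.5% rose, and with the block 15 of the 27 rose beside 9.95% of all genes. *sec24d*, a coat protein of vesicles leaving the endoplasmic reticulum, rose by 0.58 (adjusted p = 0.0248), and *sec61a1*, of the channel that secreted proteins enter through, by 0.44 (adjusted p = 0.031). Both calls were lost without any one library other than DMSO replicate 1 (0.0562 to 0.0959).

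Among 19 transcription factors, 3 rose and 1 fell, beside 5.5% and 3.56% of all genes. With the block 5 rose, beside 9.95% of all genes. *hnf4b* rose by 1.03 (SE 0.14, adjusted p = 0.0037), *hnf4a* by 0.66 (SE 0.14, adjusted p = 0.0231) and *nr1h4*, the bile acid receptor, by 0.37 (adjusted p = 0.0495), while *nr2f2* fell by 0.53 (SE 0.10, adjusted p = 0.0121). *hnf4a* no longer passed when replicate 1 or 2 of either group was left out (0.0601 to 0.0725), and *nr1h4* without any one library (0.0518 to 0.143).

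**Figure D5:**
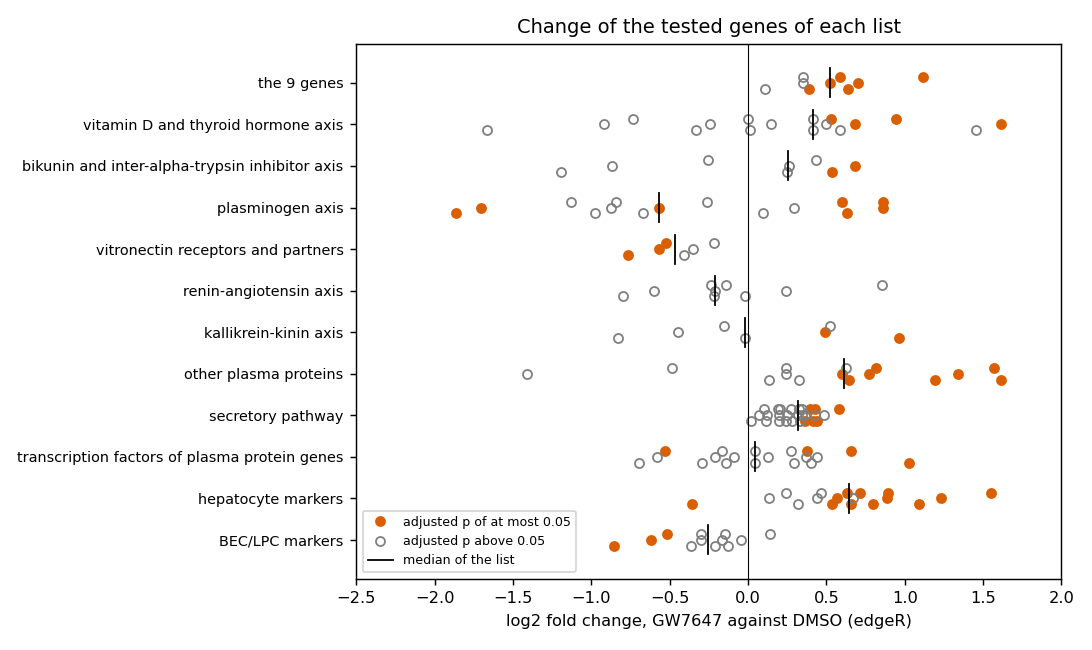
Log2 fold change (GW7647 against DMSO, horizontal axis) of each tested gene in the lists of companion genes, filled where the adjusted p was at most 0.05, with black lines for each list's median. The 9 genes have a median of 0.52, and *saa*, at -5.38 in the list of other plasma proteins, lies outside the axis.

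In bulk livers, a larger share of hepatocytes and more of these transcripts per hepatocyte cannot be told apart. Most hepatocyte markers rose, and some markers of other cell types fell. Of 18 hepatocyte markers 11 rose and 1 fell, beside 5.5% and 3.56% of all genes. Their summed level was 43129 to 49303 CPM in DMSO and 68390 to 78273 CPM in GW7647. None of the 18 is among the 9, though the study used *gc* as a hepatocyte marker. The hepatocyte markers *apoa1b*, *fgb*, *fga*, *ces2*, *cyp7a1*, *tdo2a*, *serpina1*, *serpina1l* and *hnf4a* were DEGs, while *fabp10a*, whose promoter drives the transgene, fell by 0.36 (adjusted p = 0.0496) and lost its call when any one library was left out (0.0673 to 0.177). Of 12 BEC and LPC markers 0 rose and 3 fell (*epcam* and *cldn7b* as DEGs, and *tm4sf4*), with summed levels of 13247 to 14837 and 11483 to 12067 CPM. Of 12 macrophage and neutrophil markers 3 fell (*mpx*, *cd74a*, *mmp9*), with sums of 148 to 181 and 126 to 137 CPM, and of 6 stellate cell markers 3 fell (*pdgfrb*, *acta2*, *hand2*), with sums of 60.2 to 95.8 and 32.3 to 39.3 CPM. With the replicate block 6 genes fell in each of the last 2 lists, beside 7.72% of all genes. All 9 of these marker calls were lost without DMSO replicate 2 (0.0516 to 0.157). Left out singly, DMSO replicates 1 and 3 cost 5 and 2 of them, and GW7647 replicates 1, 2 and 3 cost 8, 7 and 6. Exocrine pancreas genes, which mark tissue dissected with the liver, summed to 18.4 to 129 CPM in DMSO, highest in replicate 2, and 28.9 to 37.9 CPM in GW7647, and 0 of 11 passed in either direction. Of 7 enterocyte, 8 endothelial and 4 erythrocyte markers tested, 0 passed in either direction, and the block fit called 2, 1 and 0 of them. In that fit 9.95% of all genes rose and 7.72% fell. The part of these cell types in the changes of the 9 genes was not tested.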

How the data were processed

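The 6 libraries were stranded poly(A) libraries of pooled livers. Per the file headers, the authors deposited per-gene counts of reads (exon, uniquely mapped, gene, intron and junction reads), exon and gene lengths, TPM and RPKM made by their software, and, as a fraction from 0 to 1, shares of intron and uniquely mapped reads. The study names CLC Genomics Workbench, and the genome build and the settings for strand and multiply mapped reads are not given in the sources used here. The deposited RPKM equals exon reads per exon length over 1 library constant, so it holds no TMM factor.

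Exon counts were compared with edgeR 4.0.16 (R 4.3.3; filterByExpr with minimum count 10, TMM, quasi-likelihood F-test, no covariate), with Benjamini-Hochberg adjustment over 15705 genes, and SEs were taken from the F statistic. Intron counts (gene minus exon reads) used the exon scaling. The detection limit was set at 3 reads (0.127 to 0.163 CPM by library), which covers counting error only. Alternatives were DESeq2 1.42.0, upper-quartile and no scaling, 2 other filters, each library left out, the replicate block, other read classes, limma 3.58.1 on log2(RPKM + 1), log2(TPM + 1) and log2(TPM + 0.1), and other thresholds. Junction reads and the test of intron shares were added after the data were seen. The scripts were tested on simulated counts with known changes.

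Labels give both groups replicates 1 to 3. Centred on their group, log2 CPM values correlated at 0.161 to 0.324 in the 3 same-numbered pairs and at -0.239 to 0.0754 in the 6 others. Numbers were therefore taken to pair the libraries in the replicate block only, which rests on this check alone. The main fit and the permutation tests did not use this pairing. No 2 libraries were identical among 15 pairs.

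The 9 genes and the lists of companion and marker genes were chosen with earlier results of these data known. Named are the 9 genes and, per companion list, up to 4 genes of smallest p, the most abundant gene and direct partners. *cpb2*, *habp2*, *serpinf2b*, *cpn1_1*, *saa*, *fabp10a*, *tm4sf4* and *scarf1*, *kin* and *mccc1*, as overlapping models, were named after their values were seen. Some genes of the lists are counted but not reported here singly. Promoter sequences were not used here. SciPy 1.17.1 in Python 3.11.15 gave permutation tests, and plots used matplotlib 3.10.9.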

Additional observations from a re-analysis of the deposited data

How the results depend on the processing

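Of the 9 genes, only *vtna* changed sign under another processing, to -0.11 with no scaling factor, -0.10 with limma on log2(RPKM + 1) and -0.075 and -0.076 with limma on log2(TPM + 1) and log2(TPM + 0.1). The number of DEGs among the 9 was 2 with upper-quartile normalization, 1 with no scaling factor, with limma on RPKM or on TPM at either pseudocount, and with a fold change of at least 2, and 3 to 4 with 1 library left out. The number past an adjusted p of 0.05 was 8 with the replicate block, beside 9.95% of all genes higher, and 7 with DESeq2, beside 7.45%. It was 4 to 7 with 1 library left out. With no scaling factor the calls of *vtnb* and *itih2* were lost (adjusted p = 0.0574 and 0.271). With the block, no call of the 9 genes changed other than those of *ambp* and *agt*. Their median was 0.47 with upper-quartile normalization, 0.30 with no scaling factor, 0.31 with RPKM, 0.33 with TPM at either pseudocount, and 0.47 to 0.58 with 1 library left out. DEGs among all genes numbered 945 (56.4% of them higher), 1832 (17.5% higher) with no scaling factor, 405 at a fold change of at least 2, 373 at an adjusted p of at most 0.01 (78.3% higher) and 590 to 870 with 1 library left out, 590 without DMSO replicate 2. The higher share was 45.7% with upper-quartile normalization, 31.2% with RPKM and 28.3% and 24.2% with TPM. The log2 ratio of *ambp* to *itih2* ranged from -0.12 to 0.12 with 1 library left out and turned higher with GW7647 without DMSO replicate 2 (0.12) or GW7647 replicate 1 (0.026), and that of *plg* to *serpinf2a* ranged from -0.33 to 0.08 and turned higher without DMSO replicate 1 (0.080) or GW7647 replicate 3 (0.022). Intron counts of 15 to 1330 reads per gene limit the intron results, and 0 of the 9 passed under any alternative.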
